A study of Mus musculus with 6 samples.

Results

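Pdgfra-positive GL261-GSCs cells were barcodes with at least 3 unique molecular identifiers (UMIs, each standing for 1 captured transcript) of Pdgfra. They were chosen by that count alone, from the GL261-GSCs libraries among barcodes with at least 8000 UMIs, at least 500 genes and under 10% of UMIs from mitochondrial genes. They numbered 2853 of the 14893 GL261-GSCs cells inside these limits, and of the 22868 such cells in all 6 libraries. Pdgfra itself chose the cells, so its values are described and not tested. GL261 is an established mouse glioma line, here kept in a medium for differentiation that contains FCS (2 libraries). GL261-GSCs, labelled as glioblastoma stem cells, were kept in defined GSC medium (4 libraries), and the labels name no added gene, drug or time point for either culture. Accutase was used for dissociation, a buffer with IGEPAL for lysis, and a 10x Genomics 5' kit for droplet capture of cells or nuclei. The labels do not say which of these was loaded, whether the 4 libraries came from separate cultures, or whether GL261-GSCs are 1 clone. The p-values below measure how the difference between classes of the same library varied over the 4 libraries, a spread that may be technical.

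Pdgfra encodes the alpha receptor for platelet-derived growth factor, a receptor tyrosine kinase that dimerizes when it binds PDGF-A and other PDGF chains. The active receptor recruits adaptors that feed the RAS-ERK and PI3K-AKT pathways, and it is removed from the surface after tagging by the ubiquitin ligase Cbl. In the brain Pdgfra marks oligodendrocyte precursor cells (OPCs), whose division PDGF-A sustains, and it is lost as these cells mature into myelin-forming oligodendrocytes. PDGF signalling is also a well-known driver of glioma growth.

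The 4 GL261-GSCs libraries held 388, 646, 1398 and 421 Pdgfra-positive cells in replicates 1 to 4. They made up 10.8% of the cells in replicate 1 (95% exact binomial interval 9.77 to 11.8), 13.9% in replicate 2 (12.9 to 15.0), 28.7% in replicate 3 (27.5 to 30.0) and 23.6% in replicate 4 (21.6 to 25.6). The mean share was 19.3% ± 8.34 (SD, n = 4), with replicates 3 and 4 above replicates 1 and 2. In GL261, 14 of 3875 cells (0.361%, 0.198 to 0.605) and 4 of 4100 cells (0.0976%, 0.0266 to 0.25) reached 3 UMIs. Median depth was 16655, 13049, 13053 and 11036 UMIs per cell in GL261-GSCs replicates 1 to 4, and 16880 and 14656 in GL261, so the GL261 shares were lower at no lesser depth than most GL261-GSCs libraries. These intervals cover counting error only.

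Pdgfra (ENSMUSG00000029231.15) lies on chromosome 5 from 75152292 to 75198215 on the plus strand (GRCm38, GENCODE M21). Its level over all cells inside the limits was 53.5, 82.6, 141 and 142 CPM (UMIs of the gene scaled to a common total of UMIs per library) in GL261-GSCs replicates 1 to 4, against 7.42 and 4.31 CPM in GL261. The order of the libraries by level was the order by share, except that replicates 3 and 4 were nearly equal in level. Among droplets with 100 to under 1000 UMIs, Pdgfra stood at 27.4, 53.1, 112 and 178 CPM, so in replicate 4 it was higher there than in cells. Such droplets were taken to hold mostly free RNA, which was not tested. The part of free RNA in the Pdgfra counts of cells was not tested. After thinning each cell to 8000 UMIs, the variance of the Pdgfra count was 1.82, 1.72, 1.95 and 2.08 times its mean. For genes of a like mean (within 20%) the median of this ratio was 1.08, 1.08, 1.17 and 1.19, so Pdgfra counts were more uneven between cells than those of most such genes.

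No gap in the counts separated the classes. Just inside the limit, 186, 309, 525 and 158 cells held exactly 3 Pdgfra UMIs. Just outside, 366, 641, 820 and 300 cells held 2. The highest count in a cell was 17, 17, 25 and 20 UMIs. Cells with no Pdgfra UMI, the comparison class, numbered 1935, 2121, 1419 and 611, or 6086 in all, and 5954 cells with 1 or 2 UMIs entered neither class.

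**Figure D1:**
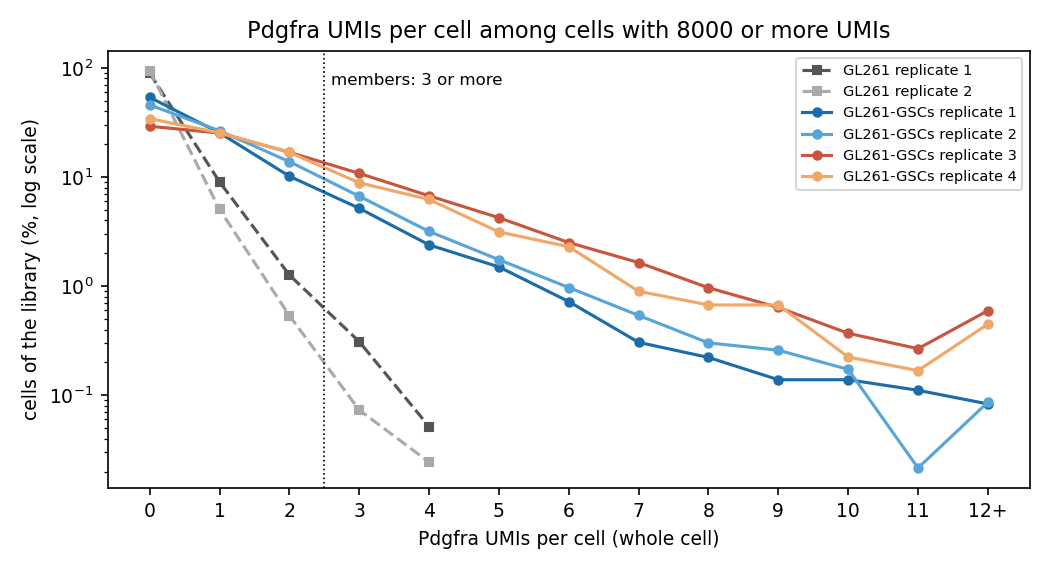
Share of the cells of each library (percent, log scale) by number of Pdgfra UMIs in the whole cell, for cells inside the depth limits. Solid lines are the 4 GL261-GSCs libraries and dashed lines the 2 GL261 libraries. The point at 12 pools cells with 12 or more UMIs and so can lie above the one at 11. Replicates 3 and 4 lie above replicates 1 and 2 from 2 UMIs on, and no GL261 cell exceeds 4 UMIs.

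Pdgfra-positive cells and 0-UMI cells of the same library were compared on UMIs of all other genes, each cell thinned to 8000 UMIs and summed per library and class. Of 12647 genes tested, 4663 (36.9%) were called at an adjusted p under 0.05, with 2230 (17.6%) higher and 2433 (19.2%) lower in the Pdgfra-positive cells (edgeR quasi-likelihood test with library as a block). Most differences were small, and 352 genes rose and 229 fell by at least 1.5-fold. With library size as the only scaling, the middle of the log2 values shifted from 0.00073 to 0.12, and the calls split into 3765 higher and 1180 lower. Without the filter on low counts they split into 1652 higher and 2865 lower. Directions of small changes are therefore relative to these choices. Without replicate 3 the number of called genes was 3046.

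Several properties of the cells moved with the comparison. A fixed limit of Pdgfra UMIs favours deep cells, and before thinning the Pdgfra-positive cells had median depths of 18668.5, 14055, 14227.5 and 12012 UMIs against 16076, 12639, 12251 and 10538 in 0-UMI cells. At 8000 UMIs they showed 139 ± 18.2 (SD, n = 4) more genes per cell, higher in 4 of 4 libraries. Among pairs matched in depth within 5% the difference was 145.6 ± 22.1 (SD, n = 4), with replicate 3 still at a median of 13588 against 12936 UMIs. Their mitochondrial share was higher by 0.0872 ± 0.0358 percentage points (SD, n = 4), also in 4 of 4 libraries. For both measures the exact sign-flip permutation p was 0.125 (2-sided), the smallest that 4 libraries allow, and 0.125 after Benjamini-Hochberg adjustment over these 2 measures. Ribosomal protein genes made up 15.1%, 15.7%, 18.3% and 18.1% of UMIs in the median Pdgfra-positive cell, against 17.0%, 17.3%, 20.02% and 20.95% in the median 0-UMI cell.

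The fold changes also followed transcript length. Across 12641 genes, which are not independent replicates, Spearman's rho between the log2 fold change and the length of the longest annotated transcript was 0.52. In the quartile of genes with the longest transcripts (4712 bases or more) the median log2 fold change was 0.20, with 41.7% higher and 3.96% lower. In the quartile with the shortest (up to 2059 bases) it was -0.22, with 3.83% higher and 43.4% lower. Of 94 ribosomal protein genes, which have short transcripts, 82 were lower and 1 higher (median -0.35). Of all genes 19.2% were lower and 17.6% higher. With the length trend taken out 63 were lower and none higher (median -0.14), beside 12.3% and 8.54% of all genes. In cells also matched on cell-cycle genes 34 of 93 were lower and none higher (median -0.09), beside 7.81% and 4.12% of all genes. The part of length in each result was not tested beyond the length-corrected values given below. Reads of ribosomal protein genes may be shared with near-identical pseudogenes, and their single values are uncertain.

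**Figure D2:**
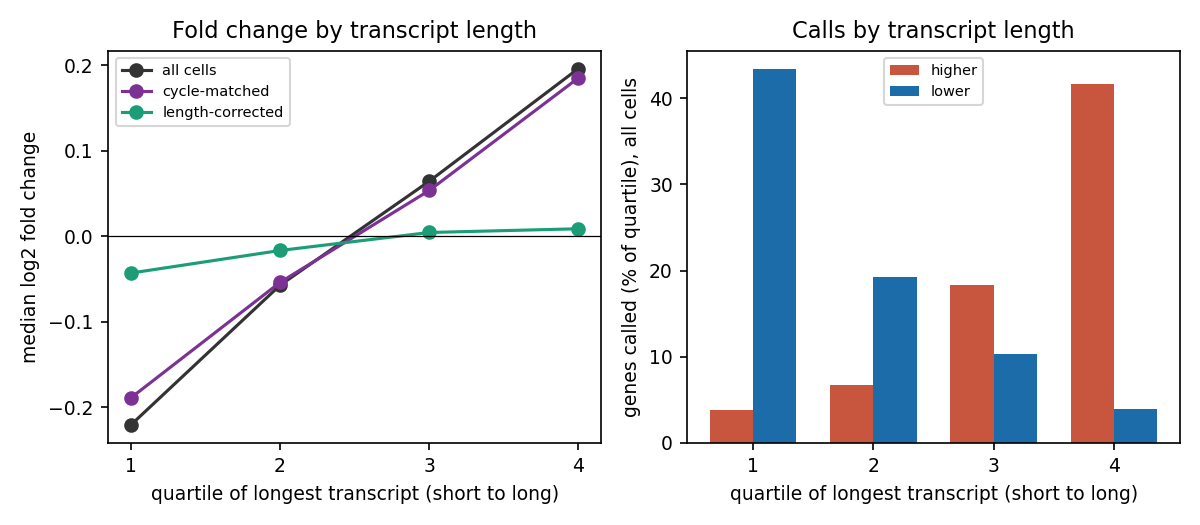
Left, median log2 fold change of genes (Pdgfra-positive over 0-UMI cells) by quartile of longest transcript, from short to long, for all cells, for cells matched on cell-cycle genes and after a length correction. Right, percent of genes called higher or lower in each quartile, all cells. The median climbs from -0.22 to 0.20 in all cells. After the correction it stays between -0.04 and 0.01, which describes the correction, since it removed the length trend of these same sums.

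Genes of the late cell cycle rose most. All of the 12 largest rises among abundant genes encode proteins of mitosis and its preparation. Of 51 tested G2/M genes 50 rose and none fell, with a median log2 fold change of 0.73. That was 98.0% higher, beside 17.6% higher and 19.2% lower of all genes. Aspm (ENSMUSG00000033952.14, chromosome 1, 139454772 to 139494091), a spindle pole protein, stood at 161, 140, 173 and 169 CPM in the Pdgfra-positive cells of replicates 1 to 4. In 0-UMI cells it stood at 51.3, 60.2, 50.4 and 49.4 CPM. The classes did not overlap, and the log2 rise was 1.59 (SE 0.07, edgeR adjusted p = 1.27e-12), or 3.004-fold.

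Mki67, the classic proliferation marker, stood at 383, 344, 459 and 399 CPM against 189, 188, 191 and 162 CPM. It too was higher in every library, by 1.11 (SE 0.06). Cenpe, a kinetochore motor, rose by 1.28 and Cenpf, a kinetochore protein, by 1.16. Gas2l3, which links microtubules and actin, rose by 1.23, and the mitotic kinases Nek2 and Plk1 by 1.10 and 1.01. Ccnb1 (cyclin B1) rose by 1.01, the cytokinesis factor Ect2 by 0.998, the kinesins Kif23 and Kif20a by 0.99 and 0.98, and Sapcd2, linked to spindle orientation, by 1.02. In the median Pdgfra-positive cell the listed G2/M genes gave 78, 85, 78 and 72 UMIs of 8000, against 41, 49, 31 and 19 in the median 0-UMI cell.

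Genes of DNA replication were more often lower than higher. Of 42 G1/S genes tested, 20 fell, 4 rose and 18 did not pass (median -0.13), or 47.6% lower and 9.52% higher beside 19.2% and 17.6% of all genes. Without replicate 1, 12 fell (28.6% beside 15.8% of all genes), and without replicate 3, 10 fell (23.8% beside 13.9% of all genes). The split depended on the scaling, with 8 lower and 8 higher under library size alone, and DESeq2 gave 11 lower and 1 higher. Ung, a uracil-DNA glycosylase that peaks early in S phase, fell from 44.1, 39.0, 29.4 and 17.2 CPM to 26.4, 19.5, 15.2 and 10.7 CPM in replicates 1 to 4 (log2 -0.88, SE 0.09). Other falls were Chaf1b, a chromatin assembly factor, by 0.66, Gins2 of the replicative helicase by 0.46, Rpa2, which coats single-stranded DNA, by 0.38, and the helicase subunit Mcm6 by 0.32. The summed G1/S UMIs of the median cell, 23, 26, 21 and 19, were close to the 25, 28, 22 and 12 of 0-UMI cells, with replicate 4 the exception.

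The same difference can be read over all cells of a library, those with 1 or 2 Pdgfra UMIs included, as a description that is not independent of the values above. In the lowest quartile of each library by G2/M UMIs, 5.51%, 7.01%, 17.8% and 11.3% of cells were Pdgfra-positive in replicates 1 to 4. In the highest quartile the shares were 20.7%, 25.1%, 46.3% and 39.3%. Depth was also higher in the highest than in the lowest quartile of each library, so Pdgfra was also read at 8000 UMIs per cell. At that depth it averaged 0.286, 0.501, 0.857 and 0.833 UMIs in the lowest quartile and 0.703, 0.996, 1.77 and 1.67 in the highest, more than the lowest quartile in every library.

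**Figure D3:**
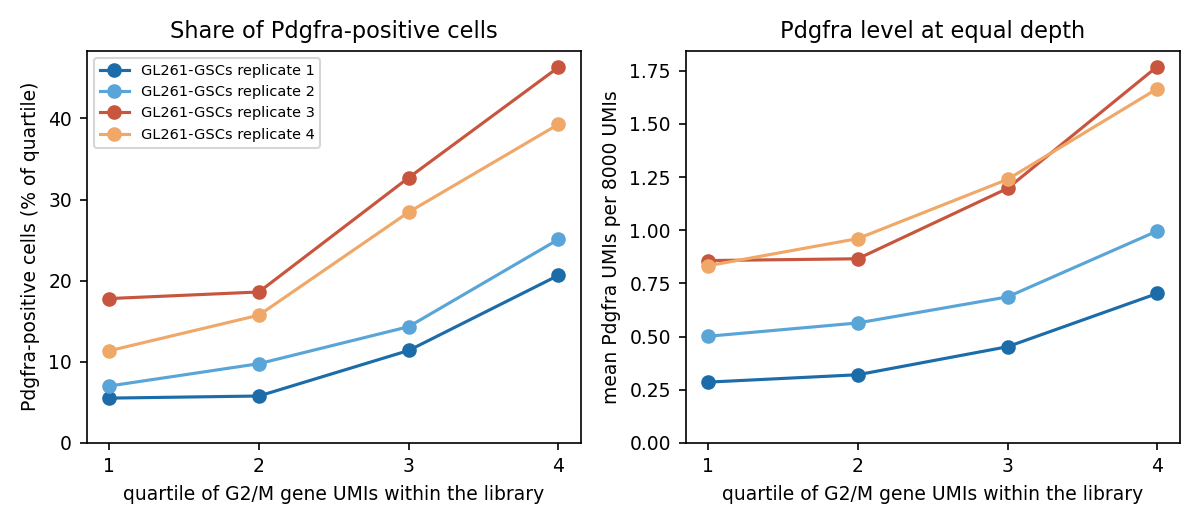
Left, percent of cells with at least 3 Pdgfra UMIs by quartile of summed G2/M UMIs within each GL261-GSCs library. Right, mean Pdgfra UMIs per cell at 8000 UMIs in the same quartiles. Each line is 1 library, and in all 4 the value is highest in quartile 4.

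Since the cycle moved with the classes, Pdgfra-positive cells were also paired with 0-UMI cells of the same library and similar summed G1/S and G2/M counts (within 0.25 SD), an alternative chosen after seeing the data. This kept 377, 625, 911 and 310 pairs and called 2938 genes. Depth was not matched, with medians before thinning of 18867, 14098, 14167 and 11843 UMIs against 16560, 13232, 12455 and 11359.5 in 0-UMI cells. The pairs had median G2/M counts of 77, 83, 50 and 51.5 UMIs against 77, 83, 46 and 46. The G2/M list then held 9 higher and 9 lower genes of 51, with a median of 0.02, which describes the matching, since it used the sum over these genes. The rise in Aspm was 0.49, that in Mki67 0.25, and Kif23 gave -0.01. In these pairs 1310 of 11369 genes were higher (11.5%) and 1628 lower (14.3%). With the length trend also removed, 1355 of 11364 genes were called, 468 higher (4.12%) and 887 lower (7.81%).

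**Figure D4:**
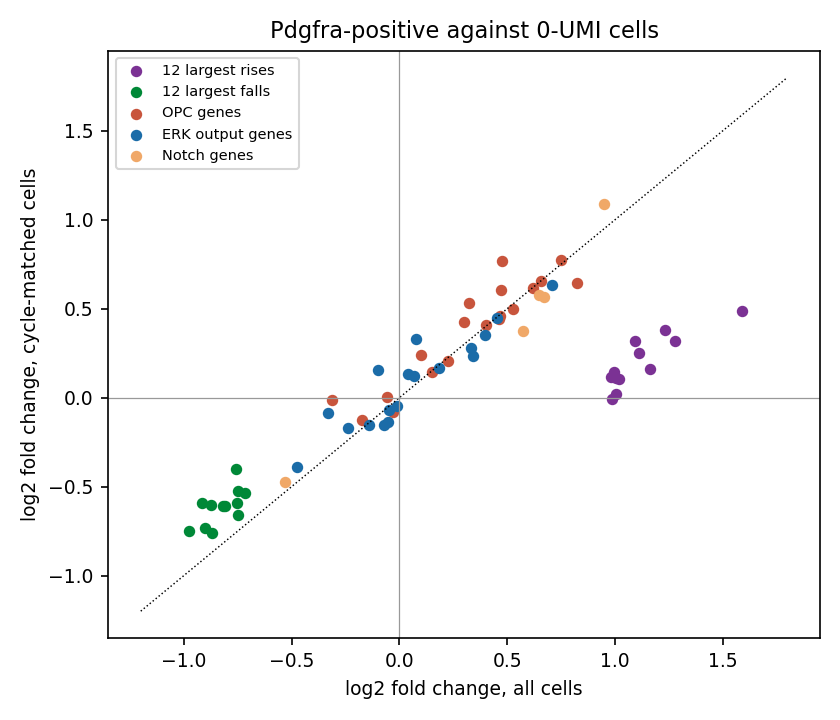
Log2 fold change of named genes in all cells (x axis) and in cycle-matched cells (y axis), with the dotted line at equality. The 12 largest rises drop to between -0.01 and 0.49 after matching, while most OPC genes and the Notch genes stay near the line.

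Most of the tested OPC genes other than Pdgfra were higher over all cells. Of 28 genes on the list, 20 were abundant enough to test, and 14 of these rose, 1 fell and 5 did not pass, with a median log2 fold change of 0.43 beside 0.00073 for all genes, of which 17.6% were higher and 19.2% lower. Those not tested were Matn4, Neu4, Susd5, Megf11, Dscam, Tmem100, Emid1 and Gria3. In cycle-matched cells 15 of 19 rose and none fell (median 0.44, with 11.5% of all genes higher), and with the length trend removed as well 11 rose and none fell (median 0.25, with 4.12% of all genes higher). The list was drawn up with earlier results on these libraries known.

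Among surface and matrix proteins of OPCs, Cspg4 (the proteoglycan NG2; ENSMUSG00000032911.6, chromosome 9, 56865033 to 56899870) stood at 101, 109, 168 and 235 CPM in Pdgfra-positive cells. The same libraries held 59.5, 67.0, 109 and 158 CPM in 0-UMI cells. Levels differed more between libraries than between classes, yet each library showed the rise, of 0.66 (SE 0.05, adjusted p = 5.86e-09, edgeR). At 8000 UMIs a Cspg4 UMI was seen in 194 of 388 Pdgfra-positive cells of replicate 1 and in 52.8%, 62.7% and 73.4% of those of replicates 2 to 4, and in 32.8%, 37.6%, 45.2% and 60.9% of 0-UMI cells.

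Vcan, the matrix proteoglycan versican, was at 88.7, 50.8, 61.3 and 51.2 CPM against 42.1, 31.5, 32.8 and 36.8 CPM, with no overlap between the classes (0.82, SE 0.08). Ptprz1, a receptor phosphatase of glial precursors, was at 212, 193, 361 and 472 CPM against 150, 127, 258 and 329 CPM (0.53, SE 0.05). Cntn1, a contactin adhesion protein, was at 127, 220, 330 and 373 CPM against 50.2, 115, 228 and 288 CPM (0.75, SE 0.09). The rise in Cntn1 was largest in replicates 1 and 2, where its level was lowest.

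Lhfpl3, a membrane protein used as an OPC marker, was at 108, 270, 146 and 157 CPM against 66.4, 158, 101 and 114 CPM (0.62, SE 0.06). Its change did not shrink in cycle-matched, length-corrected pairs, at 0.63, while Cspg4 gave 0.44, Vcan 0.37, Ptprz1 0.28 and Cntn1 0.62 there. Pcdh15, a protocadherin, rose by 0.47, Xylt1, which starts glycosaminoglycan chains, by 0.46, and Sulf2, a heparan sulfate sulfatase, by 0.40. Xylt1 and Pcdh15 lost their calls with both corrections, at adjusted p of 0.0554 and 0.0948 (edgeR). Tnr, Serpine2 and Cacng4 rose by 0.86, 0.47 and 0.47, and each lost its call when a library was left out (Tnr without replicate 2, Serpine2 without replicate 1 or 2, Cacng4 without replicate 1, 2 or 4), with adjusted p up to 0.169, 0.0516 and 0.169 (edgeR).

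Transcription factors of the lineage moved in both directions or did not pass. Olig2, the factor that specifies the lineage, was at 382, 429, 810 and 737 CPM against 418, 421, 846 and 717 CPM, a log2 difference of -0.03 (SE 0.05) that did not pass the test (adjusted p = 0.667, edgeR). Olig1 was at 316, 808, 812 and 836 CPM against 430, 909, 1052 and 1012 CPM and fell by 0.31 (SE 0.05), but it was -0.01 in cycle-matched cells and 0.08 with the length trend also removed. Sox6, which restrains maturation, rose by 0.30. It gave 0.42 in cycle-matched cells, 0.05 with the length correction alone, a lost call (adjusted p = 0.504, edgeR), and 0.20 with both corrections, where it was called (adjusted p = 0.00803, edgeR). Sox10, needed for oligodendrocyte identity, was at 423, 391, 343 and 353 CPM against 371, 358, 295 and 337 CPM and rose by 0.15 (SE 0.05, adjusted p = 0.0163, edgeR), a call lost without replicate 1 or 3 (0.104 and 0.151) and kept with both corrections (0.18). Nkx2-2, Bcan, C1ql1 and Gpr17 did not pass, at -0.06, 0.10, -0.17 and 0.32. In cycle-matched cells Bcan and Gpr17 were called, at 0.24 and 0.53, and with both corrections Bcan was (0.25) and Gpr17 was not (0.41). Olig2 UMIs were found in 91.2% to 98.9% of Pdgfra-positive cells and in 91.8% to 98.3% of 0-UMI cells.

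**Figure D5:**
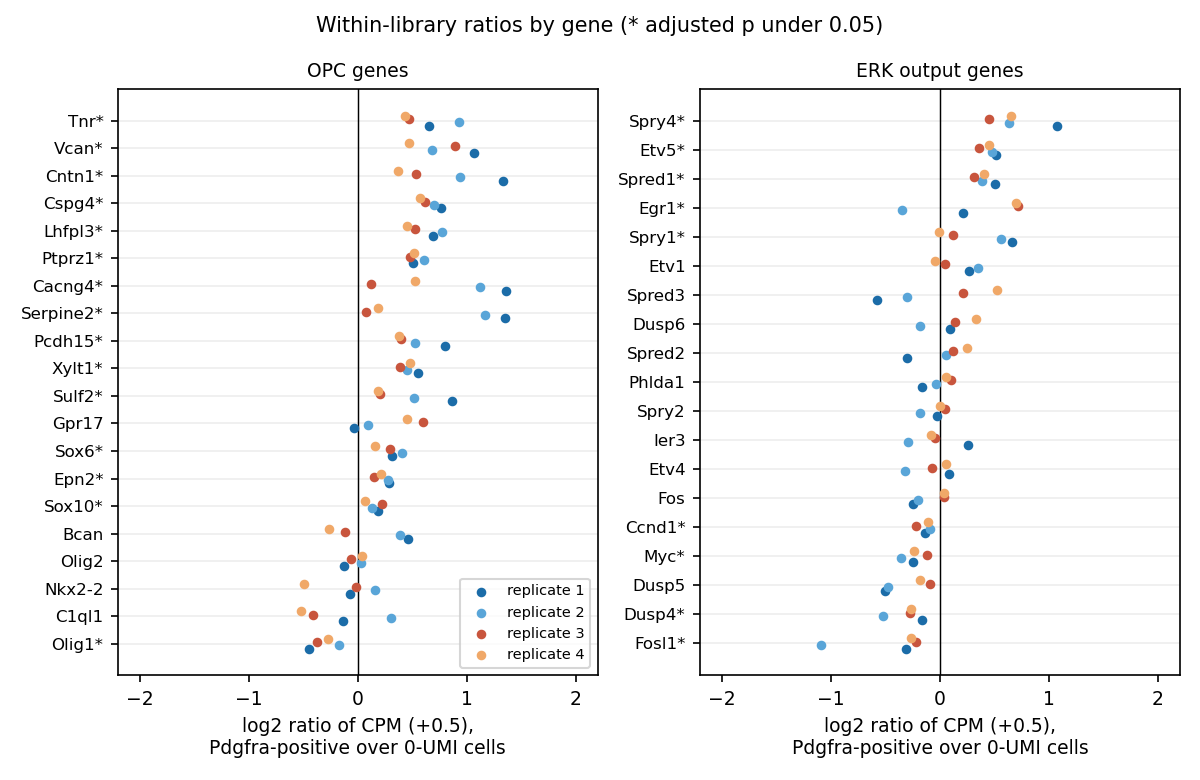
Log2 ratio of CPM (plus 0.5) between Pdgfra-positive and 0-UMI cells within each GL261-GSCs library, for tested OPC genes (left) and ERK output genes (right), with a star for an adjusted p under 0.05. Points of the top OPC genes lie right of 0 in all 4 libraries and those of Olig2 lie on both sides. Among ERK output genes Spry4, Etv5 and Spred1 lie right of 0 in all 4.

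Among the ligands and relatives of the receptor, few were present. Pdgfa, which encodes its main ligand chain, was at 76.6, 83.9, 80.4 and 93.3 CPM in Pdgfra-positive cells and at 99.9, 102, 82.6 and 105 CPM in 0-UMI cells. It fell by 0.21 (SE 0.06, adjusted p = 0.0102, edgeR), with the call lost without replicate 1 (0.0912), in cycle-matched cells (log2 -0.18, adjusted p = 0.0624) and under library size scaling. Kit, the stem cell factor receptor and neighbour of Pdgfra on chromosome 5, was at 111, 98.8, 64.4 and 43.2 CPM against 116, 87.8, 48.1 and 30.4 CPM. It rose by 0.22 (SE 0.07, adjusted p = 0.0221, edgeR), lower in replicate 1 and higher in the other 3, and the call was lost without replicate 3 or 4 (0.262 and 0.119). Counted in whole cells without thinning, where Pdgfra-positive cells were deeper, cells with at least 3 Kit UMIs made up 30.2%, 19.3%, 10.2% and 4.75% of Pdgfra-positive cells and 24.4%, 13.6%, 4.44% and 1.64% of 0-UMI cells. The call for Kit was also lost in DESeq2 (adjusted p = 0.0939), and its log2 difference was 0.08 with the length correction and 0.12 in cycle-matched, length-corrected cells, neither of them called in edgeR (adjusted p = 0.467 and 0.383). Lrig1 and Flt3 did not pass, at 0.29 and -0.28. Pdgfb, Pdgfc, Pdgfd, Pdgfrb, Kdr, Csf1r and Nrp1 were too low to test.

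Over all cells, genes that couple the receptor to its pathways were more often higher than lower, but with both corrections their shares were near those of all genes. Of 35 adaptor and effector genes, all tested, 13 rose and 3 fell (median 0.09), or 37.1% and 8.57% beside 17.6% and 19.2% of all genes. In cycle-matched cells 10 rose and 1 fell, and with the length trend also removed 2 rose and 2 fell, or 5.71% each beside 4.12% and 7.81% of all genes. Pik3r1, the regulatory subunit of PI3K that binds the receptor, was at 46.2, 71.5, 70.8 and 89.0 CPM against 27.4, 39.0, 49.5 and 58.1 CPM, and rose by 0.68 (SE 0.07). Cbl, the ubiquitin ligase for the receptor, was at 66.2, 68.4, 69.0 and 80.3 CPM against 43.0, 49.5, 42.0 and 49.6 CPM without overlap, and rose by 0.62 (SE 0.07).

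Those 2 genes kept their calls in cycle-matched, length-corrected cells, at 0.47 and 0.28. The RAS regulators Rasa1 and Sos1 rose by 0.35 and 0.33 and the PI3K catalytic gene Pik3cb by 0.35, and none of these 3 was called with both corrections (0.20, 0.01 and -0.08). All 3 falls, in Mapk3, Map2k2 and Hras, were small, at -0.23, -0.21 and -0.18, and under library size scaling no gene of the list was lower.

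Genes that ERK signalling is known to induce were mixed over all cells. Of 19 tested, 5 rose, 4 fell and 10 did not pass, with a median of -0.01, shares of 26.3% higher and 21.1% lower beside 17.6% and 19.2% of all genes. In cycle-matched cells 5 of 18 rose and 2 fell, and with the length trend also removed 4 rose and 1 fell (22.2% and 5.56%, beside 4.12% and 7.81% of all genes). Leaving out replicate 1, 2 or 3 left 2 falls over all cells (10.5%, 10.5% and 11.1%, beside 15.8%, 19.4% and 13.9% of all genes). Epha2 and Epha4 were too low to test. Spry4, a feedback inhibitor of receptor tyrosine kinases, was at 46.8, 39.3, 24.9 and 35.99 CPM against 22.0, 25.2, 18.2 and 22.8 CPM, and rose by 0.71 (SE 0.09, adjusted p = 4.58e-06, edgeR). Etv5, an ETS factor, was at 69.6, 77.5, 40.6 and 47.2 CPM against 48.5, 55.7, 31.6 and 34.4 CPM and rose by 0.45 (SE 0.07). Both were higher in 4 of 4 libraries and kept calls in cycle-matched, length-corrected cells, at 0.54 and 0.40.

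The inhibitors Spred1 and Spry1 rose by 0.40 and 0.33, and with both corrections Spry1 kept its call (0.32) while Spred1 did not (0.20, adjusted p = 0.0897, edgeR). Egr1 rose by 0.34 but was lower in replicate 2, and its call was lost without replicate 3 or 4 (adjusted p = 0.309 and 0.172, edgeR). Falls were seen in the growth regulators Myc (-0.24) and Ccnd1 (-0.14), in the ERK phosphatase gene Dusp4 (-0.33) and in Fosl1 (-0.47). Under library size scaling 7 genes of this list were higher and none lower, so these 4 falls depend on the scaling, and Ccnd1, Dusp4 and Fosl1 also lost their calls without single libraries (Ccnd1 without replicate 1 or 3, Dusp4 without replicate 2 or 3, Fosl1 without replicate 1, 2 or 4). Dusp6, another ERK phosphatase, was at 190, 120, 97.5 and 95.3 CPM against 178, 137, 88.7 and 75.7 CPM, and its difference of 0.07 did not pass (adjusted p = 0.436, edgeR).

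Other receptor tyrosine kinases were also higher in part. Of 9 tested, 4 rose and 1 fell (44.4% and 11.1%, beside 17.6% and 19.2% of all genes), in cycle-matched cells 5 of 8 rose and none fell, and with the length trend also removed 2 rose and none fell (25% higher beside 4.12% of all genes). Erbb3, a neuregulin receptor of the oligodendrocyte and Schwann cell lineages, was at 134, 63.0, 79.1 and 127 CPM against 90.6, 46.5, 57.9 and 77.3 CPM, and rose by 0.54 (SE 0.06), by 0.73 in cycle-matched cells and by 0.58 with the length trend also removed. The insulin receptor family genes Igf1r and Insr rose by 0.42 each and Met by 0.41. Of these Insr kept its call with both corrections (0.31). Ephb2 fell by 0.64 from low levels, a call lost when any 1 of replicates 1 to 4 was left out. Fgfr1, Axl, Ddr1 and Erbb2 were tested and not called.

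Genes of the Notch pathway, through which neighbouring cells restrain each other's maturation, were in part higher. Of 13 tested, 5 rose, 1 fell and 7 did not pass (median 0.14), with 38.5% higher and 7.69% lower beside 17.6% and 19.2% of all genes. In cycle-matched cells 5 of 9 rose and 1 fell, and with the length trend also removed 2 of 9 rose and none fell (22.2% higher beside 4.12% of all genes). Dll1, a Notch ligand, was at 14.3, 31.3, 46.1 and 39.2 CPM against 5.36, 14.7, 25.4 and 24.6 CPM and rose by 0.95 (SE 0.10, adjusted p = 1.56e-07, edgeR). It showed the largest rise of any named gene after cycle matching, at 1.09, and stood at 1.07 with the length trend also removed. Notch1 was at 51.3, 80.3, 99.9 and 102 CPM against 36.9, 52.7, 59.4 and 63.4 CPM and rose by 0.65 (SE 0.06). Notch2 and the ligand gene Jag1 rose by 0.67 and 0.57, calls not kept with both corrections (0.32 and 0.24), and the ligand gene Dll3 fell by 0.53, a call lost without replicate 3 (adjusted p = 0.432, edgeR). The Notch target genes Hes1 and Hes5 were tested and not called.

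Markers of later oligodendrocyte stages were more often higher than lower. Of 15 tested, 7 rose and 3 fell (median 0.16), or 46.7% higher beside 17.6% of all genes. Without replicate 1, 4 rose and 3 fell of 14, and without replicate 3 or 4, 5 rose and 1 fell, while in DESeq2 4 rose and 1 fell. In cycle-matched cells 9 rose and 1 fell, and with the length trend also removed 7 rose and none fell (46.7% higher beside 4.12% of all genes). Mbp, a myelin protein, was at 97.5, 58.6, 36.3 and 53.8 CPM against 62.7, 37.6, 35.3 and 42.7 CPM and rose by 0.43 (SE 0.08). Myrf and Tcf7l2, factors of oligodendrocyte maturation, rose by 0.46 and 0.36, and the connexin gene Gjc3 by 0.19, a call lost without replicate 4. Opalin, a protein of mature oligodendrocytes, went the other way, at 16.4, 41.1, 24.6 and 19.0 CPM against 42.7, 75.6, 30.2 and 31.7 CPM, and fell by 0.76 (SE 0.11), by 0.40 in cycle-matched cells.

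Astrocyte, neuronal and progenitor genes included both rises and falls. Of 14 radial glia and astrocyte genes tested, 3 rose and 2 fell (21.4% and 14.3%, beside 17.6% and 19.2% of all genes), and with both corrections 2 of 11 rose and 2 fell (18.2% each, beside 4.12% and 7.81% of all genes). Without replicate 2, 4 of 12 fell over all cells (33.3% beside 19.4% of all genes). Over all cells Gja1, Fabp7 and Pax6 rose by 0.39, 0.38 and 0.37, and the intermediate filament gene Vim fell by 0.24 and Clu by 0.16, the last lost without replicate 3. Of 9 neuronal genes tested, 22.2% were higher and 33.3% lower, though 1 was lower without replicate 3 or under library size alone. That was 12.5% and 11.1% lower, beside 13.9% and 9.33% of all genes. Over all cells these were 2 rises, the ligand gene Dll1 above and the microtubule gene Map2 (0.49, SE 0.05), and 3 falls. Among the falls was Stmn4, a stathmin, from 51.2, 64.3, 150 and 133 CPM to 20.1, 20.4, 84.2 and 110 CPM. Of 16 progenitor factors tested, 31.2% were higher, led by Pou3f3 (0.70), and 18.8% lower, near the 19.2% of all genes. The latter included Id3, an inhibitor of helix-loop-helix factors, at 55.3, 33.7, 16.9 and 16.4 CPM against 67.0, 75.8, 31.0 and 45.6 CPM (-0.88, SE 0.11). Id2 and Tcf12 fell by 0.29 and 0.23. With both corrections 2 of 8 neuronal genes rose and 1 fell (25% and 12.5%), and 3 of 15 progenitor factors rose and 2 fell (20% and 13.3%), beside 4.12% and 7.81% of all genes.

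The 12 largest falls among abundant genes had no theme fixed on a list. Their levels over the 4 libraries overlapped between the classes, a reading that leaves out the pairing by library. Within each library all of them were lower in Pdgfra-positive cells, which was a condition of their choice. Cst6, a secreted cysteine protease inhibitor, was at 379, 206, 286 and 184 CPM against 601, 364, 528 and 410 CPM, and fell by 0.87 (SE 0.06, adjusted p = 6.34e-10, edgeR), or 1.83-fold. The ubiquitin-like interferon response gene Isg15 fell by 0.98 and Ptgds, a prostaglandin D synthase, by 0.92. Ptgds differed little in replicate 2 (174 against 217 CPM) and most in replicate 4 (205 against 574 CPM).

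Further falls were Tcim (0.81), Wfdc13 (0.82), Shisa8 (0.75), Hebp1, a heme-binding protein (0.75), Gstm1, a glutathione transferase (0.75), and Fabp5, a fatty acid carrier (0.72), besides Stmn4, Id3 and Opalin above. In cycle-matched, length-corrected cells 11 of the 12 were still called, from -0.80 for Cst6 to -0.36 for Gstm1, while Opalin gave -0.37 with an adjusted p of 0.0872 (edgeR). Fabp5 has near-identical pseudogene copies, so its value is uncertain.

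Stress-related genes were more often lower over all cells, less so with both corrections. Of 16 hypoxia-induced genes tested, 9 fell and 2 rose (median -0.21), or 56.2% lower beside 19.2% of all genes. In cycle-matched cells 7 fell and 3 rose (43.8% lower beside 14.3% of all genes). With the length trend also removed 2 fell and 2 rose, or 12.5% lower beside 7.81% of all genes. Ankrd37, Ddit4, Mif and the glucose transporter gene Slc2a1 fell by 0.64, 0.46, 0.39 and 0.34, and of these 4 Slc2a1 kept its call with both corrections (-0.39). Of 12 immediate early and heat shock genes tested, 4 fell and 1, Egr1, rose. These were 33.3% lower and 8.33% higher, beside 19.2% and 17.6% of all genes. In cycle-matched cells, and again with both corrections, 1 fell and 1 rose. With both corrections that was 8.33% each way, beside 7.81% lower and 4.12% higher of all genes. Atf3, a stress-induced factor, was at 20.1, 21.1, 10.5 and 16.1 CPM against 43.7, 43.8, 24.2 and 16.1 CPM and fell by 0.98 (SE 0.12), with no difference in replicate 4.

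Genes of sterol synthesis leaned higher, with 11 of 22 up and 2 down (median 0.14) beside 17.6% and 19.2% of all genes. In cycle-matched cells 8 were up and none down, and with the length trend also removed 5 were up and none down (22.7% higher beside 4.12% of all genes). Hmgcs1, Lss and Srebf2, the regulator of the pathway, rose by 0.30, 0.30 and 0.28. Leaving out replicate 3 reduced the called genes of this list from 13 to 8, and those among all genes from 4663 to 3046. In that fit 31.8% of the list were higher, beside 11.9% of all genes.

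The annotation places 10 named protein-coding genes within 1 Mb of Pdgfra, of which 9 were tested, Kdr being too low. Of these 4 rose and none fell (median 0.21), or 44.4% higher beside 17.6% of all genes. In cycle-matched cells 5 rose and none fell (55.6% higher beside 11.5% of all genes). With the length correction 2 rose and 1 fell (22.2% and 11.1%, beside 8.54% and 12.3% of all genes). With both corrections 3 rose and 1 fell (33.3% and 11.1%, beside 4.12% and 7.81% of all genes). Without replicate 3 the median was 0.02 and 2 rose (22.2% higher beside 11.9% of all genes). Scfd2, a factor of vesicle trafficking, was at 31.0, 26.9, 28.1 and 36.6 CPM against 20.5, 19.6, 23.7 and 20.5 CPM without overlap, and rose by 0.48 (SE 0.09, adjusted p = 0.000304, edgeR), by 0.56 with both corrections. Fip1l1 rose by 0.21 and Kit by 0.22, and neither was called with both corrections (0.12 each). Lnx1 rose by 0.42, a call lost without replicate 1, 2 or 3. Chic2, Gsx2, Rasl11b, Srd5a3 and Tmem165 were not called over all cells, and Chic2 was the gene that fell with the length correction. Fip1l1 and Lnx1 overlap on opposite strands, and it was not stated whether the counting used the strand.

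Markers of other Pdgfra-expressing or brain cell types were checked in both classes, with summed levels given before TMM scaling. Of 16 fibroblast and mural cell markers 14 had a UMI in Pdgfra-positive cells, with Lum and Thy1 at 0. In 0-UMI cells Lum and Col1a2 were at 0. The summed level was 124 to 387 CPM against 105 to 287 CPM in 0-UMI cells. Col3a1 made up much of it, at 26.1, 224, 204 and 178 CPM against 19.8, 156, 150 and 120 CPM, and rose by 0.50 (SE 0.06). Of 12 microglia and macrophage markers 9 were at 0 in Pdgfra-positive cells, among them Cx3cr1, P2ry12, Aif1, Ptprc, C1qa and Itgam. In the more numerous 0-UMI cells 5 were at 0, among them P2ry12, C1qa and Itgam. The summed level was 5.61 to 17.2 CPM against 11.0 to 33.3 CPM. The lysosomal protein gene Cd68 was at 6.99, 4.19, 11.97 and 16.7 CPM against 18.8, 10.4, 33.6 and 36.4 CPM and fell by 1.36 (SE 0.11), by 0.86 in cycle-matched cells.

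Of 10 endothelial markers, Cldn5, Cdh5, Tek and Esam were at 0 in Pdgfra-positive cells, and Cldn5, Cdh5, Tek, Kdr and Emcn in 0-UMI cells. The summed level was 64.6 to 110 CPM against 50.3 to 74.5 CPM, most of it Flt1. This gene rose by 0.44 but not in replicate 2 (call lost without replicate 3, adjusted p = 0.0585, edgeR). Of 20 radial glia and astrocyte genes 4 (Gfap, Aqp4, Aldh1l1 and Sox9) had no UMI in Pdgfra-positive cells and 3 had none in 0-UMI cells. Of 20 neuronal genes 5, among them Neurod1 and Rbfox3, had no UMI in Pdgfra-positive cells and 6 had none in 0-UMI cells. The summed levels of these lists were 5594 to 6340 against 5732 to 6758 CPM for radial glia and astrocytes and 493 to 598 against 487 to 544 CPM for neurons. The part of these markers in the results was not tested. Between 0 and 2 Pdgfra-positive barcodes were shared by any pair of GL261-GSCs libraries.

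Levels were also read over the Pdgfra count, as a description with the library sums unscaled. Scaling by library size alone gave 3765 higher and 1180 lower calls in the comparison above. Of 131 named genes, 21 were higher at each step from 0 to 1, 2 and 3 to 4 UMIs in 4 of 4 libraries and 2 were lower at each step in 4 of 4, and most did not step in order in all libraries. Cspg4 averaged 92.9, 106, 113, 144 and 186 CPM over the 4 libraries in cells with 0, 1, 2, 3 to 4 and at least 5 Pdgfra UMIs. It was among the 21, as were Ptprz1 (204, 224, 251, 294 and 368 CPM) and Lhfpl3 (106, 122, 139, 161 and 212 CPM). Mki67, also among them, went from 175 to 212, 261, 351 and 530 CPM. Mitotic genes such as Cenpf, Plk1, Top2a and Tpx2 were among the 21 too, and no further OPC gene was. Cst6 went down from 455 to 384, 330, 297 and 227 CPM, in order in 3 of 4 libraries, and Olig2 averaged 568, 583, 604, 609 and 612 CPM. Many named genes were chosen because they differed between the end classes, so the order of the ends is no separate result, and before thinning median depth was also higher at 3 than at 0 Pdgfra UMIs in each library.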

How the data were processed

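Single-cell expression was measured in 6 libraries. The values deposited by the authors are unfiltered UMI counts per gene and barcode from Cell Ranger 4, per the file headers, and the submitters' processing notes name the build mm10. Gene positions and transcript lengths came from GENCODE M21 by identifier (54409 of 54446 matched). The members and gene lists were chosen with earlier results of these data known.

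Doublets were not removed. Median depth of the cells used was 11036 to 16655 UMIs in GL261-GSCs. Each cell was thinned to 8000 UMIs of genes other than Pdgfra without replacement, then UMIs were summed per library and class. The 8 sums were tested in edgeR 4.0.16 (R 4.3.3, TMM, filterByExpr, glmQLFit, glmQLFTest, 2-sided, Benjamini-Hochberg), with library as a block, because both classes came from the same library. This left 3 residual degrees of freedom. The SE is the absolute log2 fold change divided by the square root of F. CPM are TMM-scaled unless said otherwise. DESeq2 1.42.0 was an alternative. Single values used exact permutation tests over all sign flips, and shares have Clopper-Pearson intervals (95%, scipy 1.17.1). The edgeR script was tested on simulated data. The cycle-matched, length-corrected and within-5% depth-matched alternatives were chosen after seeing the data.

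Named genes were the 12 largest rises and falls that passed the test, went 1 way in all 4 libraries and had a mean abundance (log2 CPM) no lower than 5 (predicted, mitochondrial and ribosomal protein genes left unnamed), all tested OPC, PDGF, ERK and Pdgfra-neighbour genes, and up to 5 called genes per other list, some of which are not reported here. Others printed by name are list members given after their values were seen.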

Additional observations from a re-analysis of the deposited data

Results flagged for a closer look

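Of 138 sets of 4 library values checked, 6 had 1 library apart from the others by a gap whose share of the range passed the 95% limit of Dixon for 4 values, and chance alone gives about 1 in 20. For the G1/S UMI difference between the classes the ratio was 0.889, with replicate 4 at 19 against 12 UMIs and the other 3 libraries lower in Pdgfra-positive cells. The within-library log2 ratio of Fabp5 gave 0.85, with the largest fall in replicate 4 (514 against 1111 CPM), and that of Atf3 0.885, with no change in replicate 4. For Fosl1 it was 0.894 and for Ephb2 0.853, both low genes, and for Srd5a3, which was not called, it was 0.905.

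In GL261, outside the comparison, 14 cells of replicate 1 and 4 cells of replicate 2 reached 3 Pdgfra UMIs. Their highest count was 4. None shared a barcode with a Pdgfra-positive GL261-GSCs cell, and Cntn1, Kit and Ptprz1 had no UMI in them, while Olig2 was seen in 1 of the 14 and Sox10 in 12 of the 14 and 3 of the 4. Sox10 was also seen in 3688 of 3861 and 3942 of 4096 other GL261 cells.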

How the results depend on the processing

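The number of called genes was 4663 and lay within 1.5 times of it under the other scalings, filters, thinning depths, Pdgfra limits and depth-matched pairs. It was 2661 in DESeq2, 1108 in cells low in cycle genes, 2938 in cycle-matched cells, 2636 with the length correction and 1355 with both, and leaving out replicates gave 3046 to 4577. Without pairing the classes by library (no replicate block) it was 48. The mean share of Pdgfra-positive cells was 33.7% at 2 or more UMIs, 6.76% at 5 or more and 9.48% for counts after thinning. The difference in genes per cell was 130.5 to 143.5 with a replicate left out, and that in mitochondrial share 0.0739 to 0.0998 percentage points.

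Of 109 called named genes, 91 were called in DESeq2, 97 under library size scaling, 82 of 106 in cycle-matched cells and 53 of 106 with both corrections. Among named genes called in at least 1 of the fits compared, signs turned in cells low in cycle genes for Ccnb1 (-0.61), Opalin (0.0518), Pdgfa (0.15), Egr1 (-0.00629) and Fosl1 (0.42), in cycle-matched cells for Kif23 (-0.00510), and with the length correction for Chic2 (-0.24). With both corrections they turned for Cenpf (-0.10), Kif23 (-0.0136), Olig1 (0.0778), Pik3cb (-0.0784), Fos (0.25), Clu (0.0704), Nfia (-0.0170), Top2a (-0.0742), Tpx2 (-0.0195) and Chic2 (-0.23). The cause was not tested. Cells low in cycle genes left 40, 78, 265 and 88 Pdgfra-positive cells, which limits what could be called.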
